A study of Homo sapiens with 6 samples.

Results

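A group of 10 genes that carry, store or sense iron in human cells was followed across 6 RNA libraries by matching gene symbols in the deposited count table. They were FTH1, FTL and NCOA4 for storage, TFRC, SLC11A2 and STEAP3 for uptake, SLC40A1 for export, and ACO1, IREB2 and FBXL5 for regulation. They matched 10 of the table's 25737 rows, and 9 of the 10 had at least 1 read. The rule used gene symbols and no measured value, although the members were chosen with earlier results of these data known.

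The cells were U87MG, an established human line described in the labels as glioblastoma, and all of them were kept in DMEM with 10% fetal bovine serum before the experiment. The deprived group spent 24 h in DMEM without serine and glycine, and the complete group spent 24 h in the matching medium with both amino acids. Each group had 3 libraries of one line, named here deprived 1 to 3 and complete 1 to 3. RNA was read from transcript 3′ ends, so counts do not scale with transcript length. Levels of different genes are set side by side as CPM, reads scaled to a common library size (with TMM, a method that evens out composition between libraries). Such levels also depend on the annotation and on how reads with several alignments were counted, and neither is given in the sources used here.

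Cells take up transferrin-bound iron through the transferrin receptor (TFRC). In the endosome the iron is reduced by STEAP3 and carried to the cytosol by SLC11A2 (DMT1). Iron that is not used is stored inside ferritin, a shell of heavy (FTH1) and light (FTL) chains, and NCOA4 takes ferritin to the lysosome when iron is needed. Ferroportin (SLC40A1) is the known iron exporter of mammalian cells. The iron regulatory proteins ACO1 (IRP1) and IREB2 (IRP2) bind hairpins called iron-responsive elements (IREs) when iron is low, and FBXL5 marks IREB2 for breakdown when iron is high. Binding in the 5′ UTR of ferritin messages blocks their translation, whereas binding in the 3′ UTR of the TFRC message protects it from decay. A change in ferritin translation by this route need not appear in RNA counts, and only RNA was measured here.

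The IRE hairpins are shown because IREs are where ACO1 and IREB2 bind messages. Whole protein-coding transcripts of GENCODE v29, UTRs and coding parts alike, were searched on the transcript's strand. The pattern was a C, 5 bases, CAGTG plus 1 base other than G, and 5 bases that pair with the first 5. Pairs of G with T were allowed. Capitals mark the 6-base loop, and each site of 29 bases runs 5′ to 3′ on the gene's strand with GRCh38 coordinates.
FTL 5′ UTR, chr19:48965335-48965363, plus strand: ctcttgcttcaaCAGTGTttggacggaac
SLC40A1 5′ UTR, chr2:189580661-189580689, minus strand: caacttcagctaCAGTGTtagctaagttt
TFRC 3′ UTR, chr3:196050979-196051007, minus strand: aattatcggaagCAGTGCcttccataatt
TFRC 3′ UTR, chr3:196050575-196050603, minus strand: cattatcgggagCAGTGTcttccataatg
TFRC 3′ UTR, chr3:196050510-196050538, minus strand: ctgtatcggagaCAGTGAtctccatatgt
TFRC 3′ UTR, chr3:196050463-196050491, minus strand: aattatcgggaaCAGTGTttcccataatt
This pattern was found in 4 of the 10 genes, namely FTH1, FTL, SLC40A1 and TFRC, and in 214 of 19669 protein-coding genes (1.09%). TFRC held 4 sites and each of the other 3 genes held 1, of which that of FTH1 is not shown here. The SLC40A1 site lay in 1 of its 5 coding transcripts and the TFRC sites in 3 of 4. A match of letters is a description and does not show binding, and the pattern leaves out hairpins with other loops or bulges, such as the IRE known in an SLC11A2 isoform.

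The promoters of FTL and TFRC are shown because the levels of these genes ran in opposite directions across the libraries, as described below. Each stretch is the 250 bases before the start of the gene in RefSeq, build GRCh38.p14, on the gene's strand, with matches to the searched motifs in capitals.
FTL promoter, chr19:48965059-48965308, plus strand: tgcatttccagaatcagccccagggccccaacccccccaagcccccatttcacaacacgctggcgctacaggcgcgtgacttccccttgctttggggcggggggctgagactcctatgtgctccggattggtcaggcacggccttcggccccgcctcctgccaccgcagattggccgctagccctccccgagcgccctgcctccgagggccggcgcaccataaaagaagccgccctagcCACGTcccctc
TFRC promoter, chr3:196082091-196082340, minus strand: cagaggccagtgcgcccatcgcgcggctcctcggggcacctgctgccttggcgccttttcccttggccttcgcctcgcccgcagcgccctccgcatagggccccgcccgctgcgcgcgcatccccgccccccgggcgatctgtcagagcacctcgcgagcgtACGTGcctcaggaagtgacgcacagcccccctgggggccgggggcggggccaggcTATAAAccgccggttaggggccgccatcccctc
RefSeq start sites were matched for 9 of the 10 genes, with 14 promoters in all, and FTH1 was not matched. The motifs were searched on both strands. ACGTG, the core of the hypoxia response element, was found in 3 of the 14 promoters (FTL, TFRC and FBXL5) and in 18.5% of the 35116 promoters in the table. The match lay 11 bases before the start in FTL and 88 bases before it in TFRC. TATAAA, the TATA box, was found in TFRC alone among the 14, 33 bases before the start, and in 10.7% of all promoters. CACGTG, the E-box, which contains ACGTG, was found in FBXL5 alone and in 6.34% of all promoters. TGACNNNGC, the core of the antioxidant response element through which ferritin genes are known to be induced, was also found in FBXL5 alone of the 14, and in 10.9% of all promoters. The lack of a match says only that these letters are not in these 250 bases. The GC content was 67.6% in the FTL promoter and 74.4% in that of TFRC, against a median of 58% over all promoters.

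Library totals were 6249706 to 7247995 counts, so 3 counts corresponded to 0.414 to 0.480 CPM. The libraries did not group by label. Deprived 1, deprived 3 and complete 1 resembled each other, and deprived 2, complete 2 and complete 3 resembled each other. The chi-square per gene between libraries was 2.41 to 3.29 for the 6 pairs within these sets and 12.3 to 15.4 for the 9 pairs across them. By label it was 2.80 to 15.4 for pairs of the same label and 2.41 to 14.8 for pairs of different labels. In the deposited table, the columns of deprived 1, complete 1 and deprived 3 stand in positions 1, 2 and 3, and those of deprived 2, complete 2 and complete 3 in positions 4, 5 and 6. The labels were used as given, and a batch and an exchange of labels cannot be told apart here, so every comparison by label below depends on the labels being right. Nothing in the labels ties the libraries of a group to separate cultures, and p-values here cover the spread between libraries and may miss that between cultures. The mesenchymal markers in a list of 11 glial and glioblastoma genes were abundant, with VIM at 5090.2 to 6939 CPM and CD44 at 539 to 859 CPM. The defining astrocyte markers S100B and AQP4 had 0 counts, SOX2 stayed under 3 counts in every library, and GFAP reached at most 0.894 CPM. OLIG2, another glial gene of the list, was detected in every library, at 1.52 to 6.88 CPM. Summed over the list, the deprived libraries gave 7661, 9990.0 and 7957 CPM, and the complete libraries gave 8034, 9997 and 10150.0 CPM. The sum, most of it VIM and FN1, was thus lower in deprived 1, deprived 3 and complete 1. CHI3L1, another mesenchymal marker of the list, went the other way, with 1140, 940 and 883 counts in those libraries against 452, 408 and 393 counts for deprived 2, complete 2 and complete 3. The part of these markers in the iron gene values was not tested.

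The 2 ferritin chains were the most abundant of the 10 messages, and they differed more between libraries than the other members. FTH1, the chain that oxidises iron for storage, stood at 4403, 2049 and 4275 CPM in the deprived libraries 1, 2 and 3, and at 4455, 1989 and 2106 CPM in the complete libraries 1, 2 and 3. The 3 high values came from deprived 1, deprived 3 and complete 1, so the groups overlapped completely. The group mean was 3575 ± 1324 CPM (SD, n = 3) without serine and glycine and 2849.9 ± 1391 CPM (SD, n = 3) with them. The log2 fold change, deprived over complete, was 0.33 in the count model of edgeR (SE 0.35, 95% interval -0.46 to 1.11, edgeR adjusted p = 0.999), which is within the spread between libraries. Fold changes below have the same direction, and adjusted p-values are corrected over all genes tested.

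FTL, the chain that helps the iron core form, was high in the same 3 libraries, at a lower level. It stood at 1694, 858 and 1666 CPM in the deprived libraries and at 1669.9, 918 and 884 CPM in the complete ones. The groups overlapped, with means of 1406 ± 475 CPM (SD, n = 3) without the amino acids and 1157 ± 444 CPM (SD, n = 3) with them. The edgeR fit by label gave 0.28 on the log2 scale (SE 0.29, 95% interval -0.38 to 0.95, edgeR adjusted p = 0.999).

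Ferritin took a share of all counts that ran from 0.289% to 0.615% for FTH1 and FTL together. The deprived libraries 1, 2 and 3 had 0.607%, 0.289% and 0.590%, whereas the complete libraries 1, 2 and 3 had 0.615%, 0.290% and 0.300%. By count, FTH1 ranked 7 among all rows in each of deprived 1, deprived 3 and complete 1. It ranked 22 in deprived 2, 25 in complete 2 and 20 in complete 3. FTL ranked between 34 and 35 in the first 3 of these libraries and 113, 104 and 106 in the latter 3. The 2 chains held 82.5% to 90.5% of the counts of all 10 genes. In bulk RNA, fewer cells that make a message and less of it per cell cannot be told apart.

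Ferritin counts carry an uncertainty of their own, because the human genome holds many processed copies of both genes and the treatment of reads with several alignments is not given in the sources used here. One copy, FTH1P3, had 30.0, 16.3 and 35.0 CPM in the deprived libraries and 33.6, 17.3 and 18.3 CPM in the complete ones. It was thus high in the same 3 libraries as FTH1, at 1 read for every 115 to 147 reads of FTH1. The copies FTLP10 and FTH1P18 and the ferritin genes FTMT and FTHL17 had 0 counts in all 6 libraries.

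NCOA4, the receptor that delivers ferritin to the lysosome, varied little. It stood at 129.9, 114 and 131 CPM in the deprived libraries and at 125, 111 and 109 CPM in the complete ones. As with ferritin, deprived 1, deprived 3 and complete 1 were on top, but the highest value was 1.20 times the lowest. Between labels it differed by 0.12 on the log2 scale (SE 0.096, 95% interval -0.096 to 0.34, edgeR adjusted p = 0.999). Relative to FTH1, NCOA4 gave 0.0279 to 0.0305 reads per FTH1 read in the libraries with high ferritin, and 0.0518 to 0.0558 in the other 3.

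**Figure D1:**
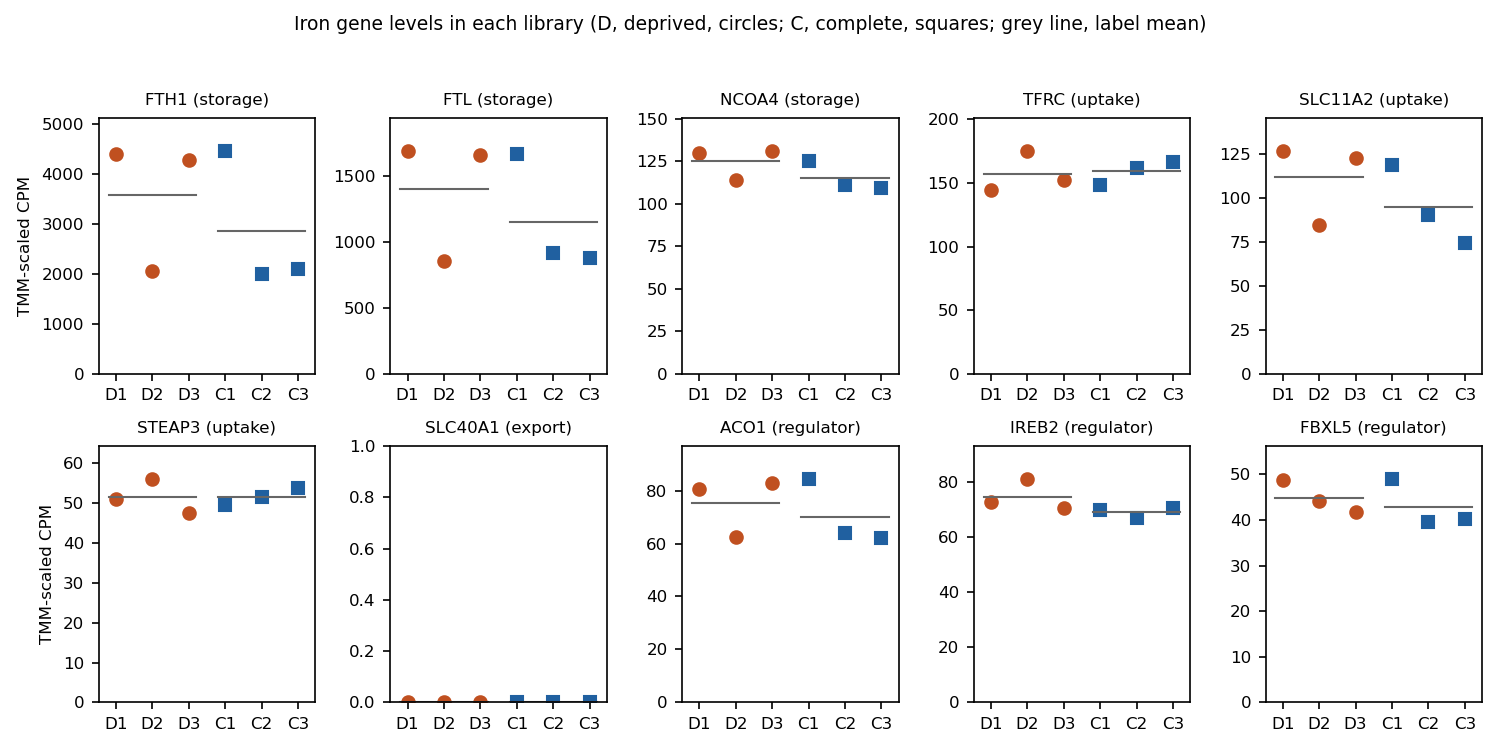
TMM-scaled CPM of each of the 10 iron genes (vertical axes, each from 0) in the 3 deprived libraries (D, circles) and the 3 complete libraries (C, squares), with a grey line at each label's mean. FTH1 and FTL are high in D1, D3 and C1, at 4275 to 4455 CPM for FTH1, and lower in D2, C2 and C3, at 1989 to 2106 CPM, while SLC40A1 is at 0 throughout.

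Among the uptake genes, TFRC ran opposite to ferritin and SLC11A2 ran with it. TFRC, the receptor for iron-loaded transferrin, stood at 144, 175 and 152 CPM in the deprived libraries and at 148, 162 and 166 CPM in the complete ones. The 3 lowest values came from deprived 1, deprived 3 and complete 1, although the highest value was only 1.21 times the lowest. Group means were 157 ± 15.9 CPM (SD, n = 3) without and 159 ± 9.48 CPM (SD, n = 3) with the amino acids. The difference by label was -0.016 on the log2 scale (SE 0.10, 95% interval -0.24 to 0.21, edgeR adjusted p = 0.999).

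SLC11A2, which moves ferrous iron out of the endosome, varied more than any member other than the ferritin chains. It stood at 127, 85.1 and 123 CPM in the deprived libraries and at 119, 90.8 and 74.3 CPM in the complete ones. Deprived 1, deprived 3 and complete 1 were high and the groups overlapped, with means of 112 ± 23.4 CPM (SD, n = 3) and 94.8 ± 22.8 CPM (SD, n = 3). By label it differed by 0.24 on the log2 scale (SE 0.19, 95% interval -0.19 to 0.68, edgeR adjusted p = 0.999).

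STEAP3, the reductase of endosomal iron, was the steadiest member. It stood at 51.0, 55.9 and 47.5 CPM in the deprived libraries and at 49.4, 51.5 and 53.8 CPM in the complete ones, so that the highest value was 1.18 times the lowest. Its 3 lowest values came from the libraries in which ferritin was high. The highest of these (51.0 CPM, deprived 1) and the lowest of the others (51.5 CPM, complete 2) differed by less than counting error. The edgeR fit by label gave -0.0029 on the log2 scale (SE 0.099, 95% interval -0.23 to 0.22, edgeR adjusted p = 0.999).

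The exporter SLC40A1 had 0 counts in each of the 6 libraries. A count of 0 allows up to 0.414 to 0.480 CPM per library, and this covers counting error only. No fold change can be given for it and it was not tested.

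The 3 regulators were expressed at 39.6 to 84.2 CPM and did not move as one. ACO1, the regulatory protein that turns into a cytosolic aconitase when it holds an iron-sulfur cluster, stood at 80.7, 62.5 and 82.9 CPM in the deprived libraries and at 84.2, 64.0 and 62.1 CPM in the complete ones. It was high in the same 3 libraries as ferritin. Between labels it differed by 0.11 on the log2 scale (SE 0.15, 95% interval -0.23 to 0.44, edgeR adjusted p = 0.999).

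IREB2, the regulatory protein that is degraded when iron is high, was the only member whose groups did not overlap. It stood at 72.6, 80.9 and 70.5 CPM in the deprived libraries and at 69.8, 67.0 and 70.4 CPM in the complete ones. The lowest deprived value and the highest complete value differed by less than counting error, and the groups overlapped when libraries were scaled by RLE, the median ratio method of DESeq2, or by their totals alone. The difference by label was 0.11 on the log2 scale (SE 0.090, 95% interval -0.090 to 0.31, edgeR adjusted p = 0.999). FBXL5, the ubiquitin ligase subunit that senses iron, stood at 48.8, 44.2 and 41.7 CPM in the deprived libraries and at 48.9, 39.6 and 40.2 CPM in the complete ones. Its values were mixed over both sets of libraries and both labels, and the difference by label was 0.065 on the log2 scale (SE 0.12, 95% interval -0.20 to 0.33, edgeR adjusted p = 0.999).

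**Figure D2:**
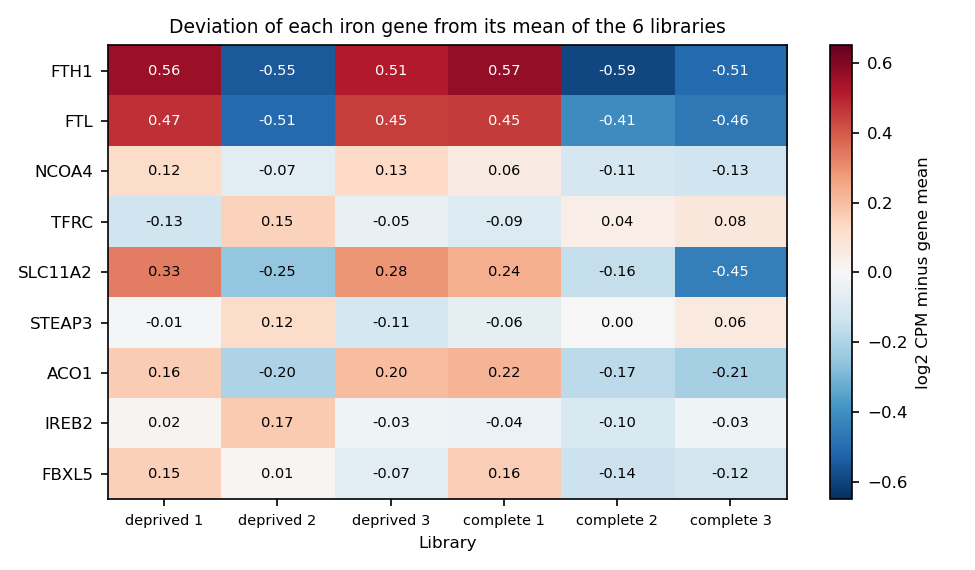
Deviation of each tested iron gene from its own mean over the 6 libraries, in log2 CPM (colour and printed values; rows are genes, columns are libraries). FTH1, FTL, NCOA4, SLC11A2 and ACO1 are above their mean in deprived 1, deprived 3 and complete 1 and below it in the other 3, and TFRC and STEAP3 have the opposite signs or are near 0.

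In order of mean level the members were FTH1 (3213 CPM), FTL (1282 CPM), TFRC (158 CPM), NCOA4 (119.8 CPM), SLC11A2 (103 CPM), ACO1 (72.7 CPM), IREB2 (71.9 CPM), STEAP3 (51.5 CPM), FBXL5 (43.9 CPM) and SLC40A1 (0 counts). Ranges over the 6 libraries overlapped between NCOA4 and SLC11A2, between SLC11A2 and ACO1, between ACO1 and IREB2, and between STEAP3 and FBXL5. Within each library the order of these neighbours held in 6 of 6 cases, except that ACO1 was above IREB2 in 3 of 6 libraries. ACO1 led in the 3 libraries with high ferritin, and IREB2 led in the other 3.

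Ratios within a library do not depend on its scaling, and they show the members' relative movement directly. For each TFRC read, the deprived libraries gave 30.6, 11.7 and 28.2 FTH1 reads, and the complete libraries gave 30.1, 12.3 and 12.7. The ratio was therefore at least 28.2 in 3 libraries and at most 12.7 in the other 3, with both labels in each set. FTL gave 11.8, 4.91 and 11.0 reads per TFRC read in the deprived libraries and 11.3, 5.67 and 5.33 in the complete ones.

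The ratio of the 2 ferritin chains moved much less than either chain. The deprived libraries gave 2.60, 2.39 and 2.57 FTH1 reads per FTL read, and the complete libraries gave 2.67, 2.17 and 2.38. This ratio was thus at least 2.57 in deprived 1, deprived 3 and complete 1, and at most 2.39 in the other libraries. IREB2 over ACO1 was 0.899, 1.29 and 0.850 in the deprived libraries and 0.830, 1.05 and 1.13 in the complete ones, below 1 in deprived 1, deprived 3 and complete 1. SLC11A2 over TFRC was 0.885, 0.488 and 0.813 in the deprived libraries and 0.808, 0.561 and 0.448 in the complete ones. In each of these ratios the 2 labels overlapped.

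**Figure D3:**
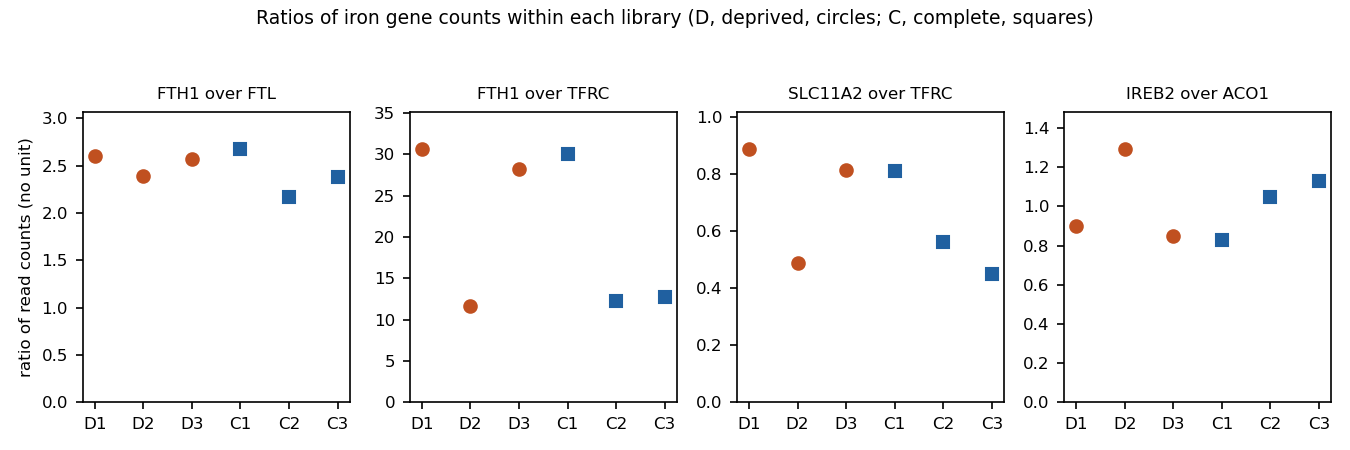
Ratio of read counts of 2 iron genes within each library (vertical axes from 0, no unit), for the 3 deprived libraries (D, circles) and the 3 complete libraries (C, squares). FTH1 over TFRC is 28.2 to 30.6 in D1, D3 and C1 and 11.7 to 12.7 in D2, C2 and C3, while FTH1 over FTL stays between 2.17 and 2.67.

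The comparison by label asked whether withdrawal of serine and glycine for 24 h changed the iron genes. Of the 9 tested members 0 passed an edgeR adjusted p under 0.05, as did 0 of all 13068 genes tested (0%). At an unadjusted p under 0.05 the members gave 0 calls, where 247 of all genes did (1.89%), and DESeq2 and limma-voom also called 0 members. By sign 7 of the 9 were higher and 2 lower without the amino acids, and the members' median log2 fold change was 0.11, against 0.0033 over all genes. These signs are not calls, and every 95% interval held 0. One member (IREB2) of 9 had all 3 deprived libraries above all 3 complete ones, as did 3.48% of all genes, and 0 had them all below, as did 3.49%. The intervals leave room for a rise of up to 1.11 on the log2 scale for FTH1, 0.95 for FTL and 0.34 for NCOA4, and for TFRC they run from -0.24 to 0.21.

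The order of libraries that crossed the labels was found in most members. Deprived 1, deprived 3 and complete 1 held the 3 highest values of 5 of the 9 members, FTH1, FTL, NCOA4, SLC11A2 and ACO1, where 18.3% of all tested genes had that order. They held the 3 lowest values of 2 members, TFRC and STEAP3, where 17.7% of all genes had that order. These assignments were the same under the 4 library scalings tried, although the gap for STEAP3 was less than counting error. The highest value over the 6 libraries was 2.24 times the lowest for FTH1, 1.97 times for FTL and 1.72 times for SLC11A2, and 1.18 to 1.36 times for the other 6. Over the 9573 genes with a mean of at least 10 CPM the median was 1.32, with 23.4% at 1.5 or more and 3.98% at 2 or more, and the members' median was 1.24. Of the 9 members 3 were at 1.5 or more and 1 was at 2 or more.

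The labels and these library sets disagree in deprived 2 and complete 1. With both left out, a choice made after their values were seen, 5 members passed the threshold, all of them higher in the deprived libraries that remained, as were 8.57% of all genes tested in that fit. Their edgeR log2 fold changes were 1.08 for FTH1, 0.90 for FTL, 0.60 for SLC11A2, 0.38 for ACO1 and 0.24 for NCOA4. TFRC (-0.15), STEAP3 (-0.095), FBXL5 (0.18) and IREB2 (0.058) did not pass. The same fit called 2096 of 13145 genes, and since the libraries left out were picked for how they lay among the others, its p-values cannot be read as a test of the medium.

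**Figure D4:**
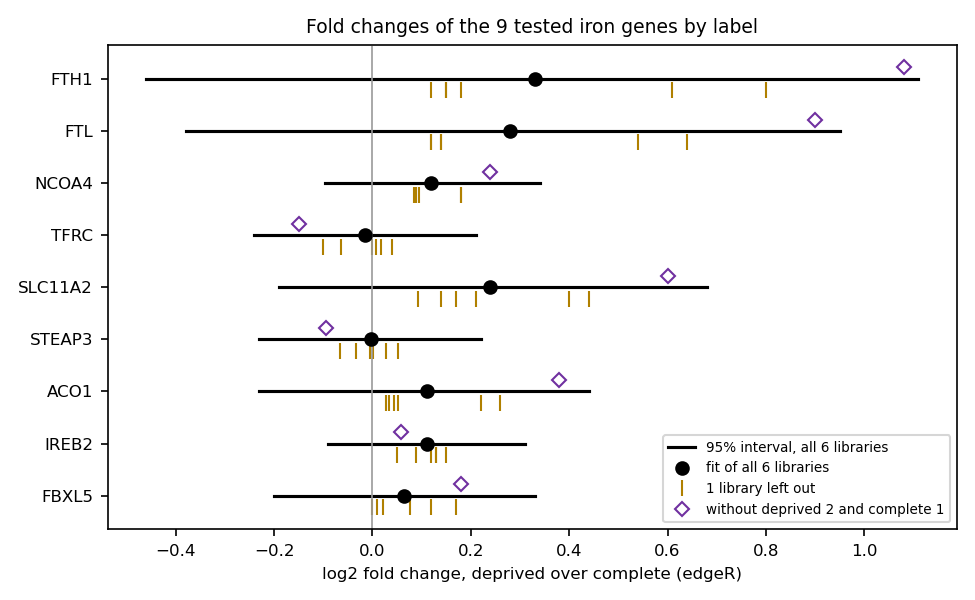
The edgeR log2 fold change, deprived over complete, of the 9 tested iron genes (horizontal axis), with all 6 libraries (black point, line for the 95% interval), with 1 library left out at a time (short ticks) and without deprived 2 and complete 1 (open diamonds). Every interval crosses 0, and FTH1 moves from 0.33 to 1.08 when both libraries are left out.

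A wider set of 92 genes of iron handling was read in the same fit, and 78 of them were tested. In this set 0 passed the adjusted threshold and 1, PCBP4, had an unadjusted p under 0.05. By sign 43 were higher and 35 lower without serine and glycine, and the median log2 fold change was 0.034. Deprived 1, deprived 3 and complete 1 held the 3 highest values of 19 of the 78 and the 3 lowest values of 13, near the shares of 18.3% and 17.7% over all tested genes. The named genes below come from each list by the smallest p and the highest level.

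Of 13 other uptake genes 7 were tested, with 0 calls, 5 of them higher, 2 lower and a median log2 fold change of 0.10. CYBRD1, a ferric reductase of the plasma membrane, stood at 34.0, 24.9 and 26.4 CPM in the deprived libraries and at 22.6, 18.3 and 26.7 CPM in the complete ones, a difference of 0.33 on the log2 scale (SE 0.18, edgeR adjusted p = 0.999). LRP1, a receptor that also takes up heme bound to hemopexin, stood at 188, 140.0 and 188 CPM and at 189, 138 and 153 CPM, high in the 3 libraries with high ferritin. TF, the gene of transferrin, and TFR2, its second receptor, had 0 counts in all 6 libraries.

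Of 7 other genes of storage and iron chaperoning 6 were tested, with 0 calls, 3 of each sign and a median of 0.029. PCBP4, a member of the family of RNA-binding proteins that also carry iron to ferritin, stood at 116, 136 and 130.3 CPM in the deprived libraries and at 142, 153 and 162 CPM in the complete ones. Every deprived value was below every complete one. The difference was -0.26 on the log2 scale (SE 0.096, edgeR adjusted p = 0.999). Before adjustment the edgeR p was 0.0246. PCBP2, a chaperone that loads ferritin with iron, was the most abundant of this list and stood at 358, 402 and 371 CPM against 369.7, 388 and 403 CPM.

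Of 9 other genes of export and its hormonal control 4 were tested, with 0 calls, 4 of them higher and a median of 0.11. CP, the ferroxidase ceruloplasmin that works beside ferroportin, stood at 25.1, 19.5 and 29.9 CPM in the deprived libraries and at 25.2, 22.6 and 18.9 CPM in the complete ones, with its 3 highest values in deprived 1, deprived 3 and complete 1. BMP6, the signal that induces hepcidin in liver, stood at 115, 118 and 114 CPM against 123, 112 and 103 CPM. HAMP, the gene of hepcidin, and HJV, a BMP coreceptor, had 0 counts throughout.

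Iron-sulfur cluster genes, whose products use mitochondrial iron, showed no common direction. Of the 22 mitochondrial genes, all tested, 0 were called, 10 were higher and 12 lower, and the median was -0.034. ISCU, the scaffold on which clusters are built, stood at 137, 96.2 and 123 CPM in the deprived libraries and at 118, 91.3 and 76.5 CPM in the complete ones, high in deprived 1, deprived 3 and complete 1. By label it differed by 0.32 on the log2 scale (SE 0.17, edgeR adjusted p = 0.999). HSPA9, the chaperone that releases clusters from the scaffold, shared this pattern, at 357, 229 and 337 CPM without the amino acids and 334, 233 and 233 CPM with them. Of the 11 cytosolic genes, all tested, 0 were called, 4 were higher and 7 lower, and the median was -0.041. CIAO1, a subunit of the complex that inserts clusters into target proteins, stood at 97.4, 93.8 and 105 CPM against 98.7, 87.4 and 78.9 CPM. CIAO2B, from the same complex and listed in the table under an older symbol, stood at 151, 165 and 154 CPM against 152, 145 and 148 CPM.

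Heme synthesis begins with glycine, so that its list is close to the treatment. Of its 13 genes 12 were tested, with 0 calls, 4 higher, 8 lower and a median of -0.028. ALAS1, the first enzyme, which joins glycine to succinyl-CoA, stood at 47.0, 30.0 and 44.9 CPM in the deprived libraries and at 35.9, 33.4 and 30.4 CPM in the complete ones. Its 3 highest values came from deprived 1, deprived 3 and complete 1. The groups overlapped through deprived 2, and the difference was 0.29 on the log2 scale (SE 0.17, edgeR adjusted p = 0.999). TMEM14C, which carries a heme precursor in mitochondria, stood at 121, 120.1 and 128 CPM against 140.1, 115 and 115 CPM.

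Among the 8 lists of other iron genes, heme breakdown and transport had the most genes with their 3 highest values in deprived 1, deprived 3 and complete 1, namely 6 of its 10 tested genes, where 18.3% of all tested genes had them there, and 0 with their 3 lowest values there. By label 0 were called, 9 were higher and 1 lower, and the median was 0.10. HMOX1, heme oxygenase 1, which frees iron from heme, stood at 210.1, 81.0 and 223 CPM in the deprived libraries and at 217, 101 and 90.6 CPM in the complete ones. Its highest value was 2.75 times its lowest, the widest spread among the tested iron genes of at least 10 CPM. The edgeR fit by label gave 0.33 on the log2 scale (SE 0.40, 95% interval -0.58 to 1.24, edgeR adjusted p = 0.999). FLVCR2, a choline transporter that was also described as a heme carrier, stood at 27.5, 12.5 and 19.6 CPM against 20.2, 12.7 and 13.1 CPM.

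The 6 genes listed as other IRE messages were all tested, with 0 calls, 4 higher, 2 lower and a median of 0.13. Whether each human message of this list, such as that of SDHB, carries an IRE was not checked here. CDC42BPA, a kinase of the actin cytoskeleton whose message has an IRE in its 3′ UTR, stood at 341, 267 and 337 CPM in the deprived libraries and at 309, 235 and 233 CPM in the complete ones. Between labels it differed by 0.28 on the log2 scale (SE 0.14, edgeR adjusted p = 0.999). PFN2, a profilin, stood at 335, 287 and 317 CPM against 333, 257 and 271 CPM. Both were high in deprived 1, deprived 3 and complete 1.

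**Figure D5:**
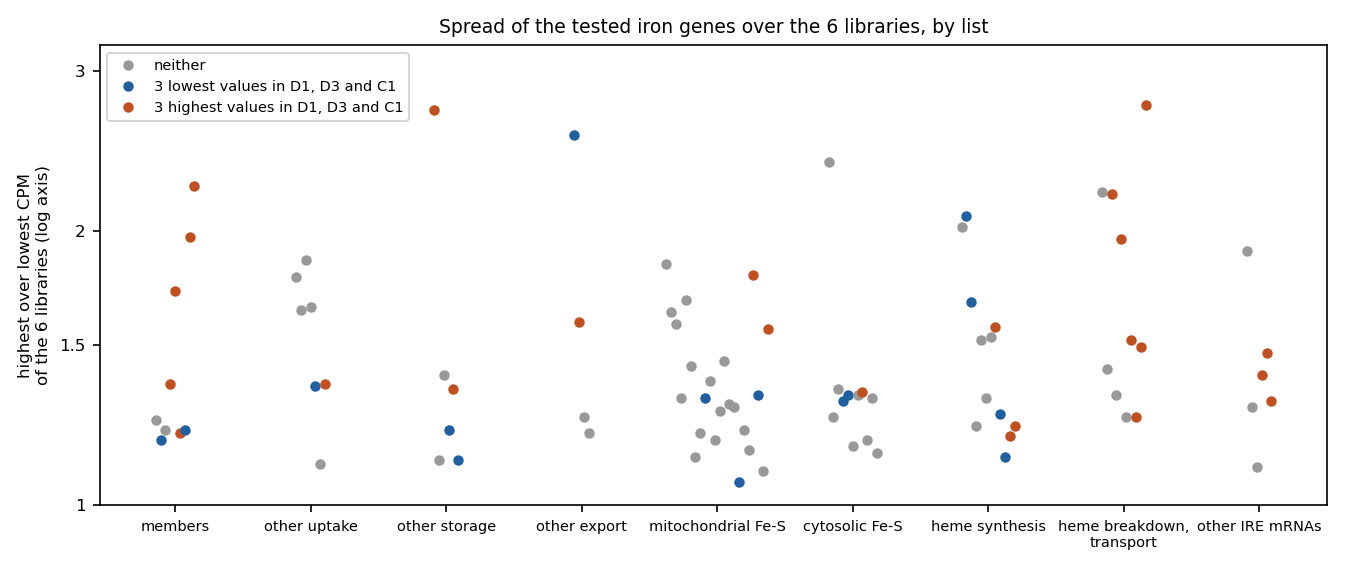
Highest over lowest CPM of the 6 libraries (vertical log axis) for each tested iron gene, by list (horizontal axis), coloured by whether its 3 highest or 3 lowest values lay in D1, D3 and C1. Among the members FTH1 (2.24) and FTL (1.97) stand highest, and HMOX1 (2.75) tops the list of heme breakdown and transport.

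Markers of red blood cells and hepatocytes, which have a large iron turnover, were at or near 0. In a list of 8 erythroid genes 6 had 0 counts, among them the hemoglobin genes HBB, HBA1 and HBA2, and the list summed to 0 to 0.708 CPM in the deprived libraries and 0.149 to 0.640 CPM in the complete ones. In a list of 6 hepatocyte genes 4 had 0 counts and the sum was 0 to 0.428 CPM and 0.276 to 0.894 CPM. The 6 leukocyte genes summed to 5.71 to 6.65 CPM and 5.76 to 8.97 CPM, mostly from CSF1R, a macrophage marker at 4.64 to 8.69 CPM in every library, with CD3E and MS4A1 at 0. The 3 epithelial genes summed to 0.708 to 0.857 CPM and 0.800 to 1.66 CPM, with CDH1 and KRT5 at 0.

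The genes whose pattern over the 6 libraries was nearest to that of a member were found among 9497 genes with a mean of at least 10 CPM outside the iron lists. Likeness was measured as the root mean square distance of log2 CPM, each centred on its gene's mean. For FTH1 these were TIMP4 (0.0426), an inhibitor of matrix metalloproteinases, CTSD (0.0479), the lysosomal protease cathepsin D, and BEX1 (0.0613). CTSD stood at 683, 312 and 639 CPM in the deprived libraries and at 680.1, 329.8 and 332 CPM in the complete ones.

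For FTL the nearest genes were TMTC1 (0.0400), RNF187 (0.0447) and RND3 (0.0464). RND3 stood at 1031, 547 and 969 CPM in the deprived libraries and at 1027, 561 and 565 CPM in the complete ones. FTL and FTH1 were 0.1012 apart. Each chain had its named genes nearer than the other chain, but these were picked as the nearest of all candidates. How many candidates lay nearer than the other chain was not counted. For TFRC the nearest were PFKFB3 (0.0151), an enzyme that drives glycolysis, ERCC1 (0.0168), a DNA repair nuclease subunit, and CHD3 (0.0169), a chromatin remodeller. PFKFB3 stood at 59.8, 70.6 and 61.2 CPM in the deprived libraries and at 60.6, 65.8 and 68.3 CPM in the complete ones, a spread as small as that of TFRC. The distances are descriptions over 6 libraries, and small ones are easier to reach for genes that vary little.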

How the data were processed

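The table that the authors deposited held raw counts, not normalized, by gene symbol for the 6 libraries. Per the labels' protocols, a QuantSeq 3′ mRNA kit was used on 500 ng of total RNA per library. Bowtie2 is named in the submitters' processing notes, without a version. Not given in the sources used here are the build, the annotation, the program that counted reads, its use of strand and its handling of multiply aligned reads, so ferritin counts may hold reads of processed copies. Groups and replicate numbers came from sample titles, and 0 columns were left unmatched. The table held 24462 different symbols on 25737 rows, and 0 rows named no gene. Depth was 6249706 to 7247995 counts per library.

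Counts were tested with edgeR 4.0.16 in R 4.3.3 over all rows, with filterByExpr at a minimum count of 10, TMM scaling, the quasi-likelihood test of the label and Benjamini-Hochberg adjustment over 13068 genes at 0.05. The biological coefficient of variation was 14.1%. CPM values in the text are TMM-scaled, except those of cell type markers, which use library totals, with a prior count of 3 in log2 CPM. The step was tested on simulated data that held no library sets crossing the labels, so this does not cover that feature of the real libraries.

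The members and the lists of other iron genes were chosen with earlier results of these data known. The text names all members, from each other list the gene with the smallest p and the gene with the highest mean CPM where none passed the threshold, the 3 nearest profiles of FTH1, FTL and TFRC, and HMOX1. SLC40A1 has no profile, and genes given for their absence were added as markers or controls after their values were seen. Of the list symbols, 5 were matched through older symbols. Transcript sequences came from GENCODE v29 and promoters from RefSeq GRCh38.p14.

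Alternatives were RLE, upper quartile and total count scaling, no low count filter, a stricter filter (CPM of 5 in 3 libraries), shared symbols summed, a block for replicate number, DESeq2 1.42.0, limma 3.58.1 voom and each library left out. The fit without deprived 2 and complete 1 was added after the data were seen. Python 3.11.15 with pandas 2.3.3 read the tables, and Matplotlib 3.10.9 drew the figures.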

Additional observations from a re-analysis of the deposited data

How the results depend on the processing

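With each other scaling, filter, tool, replicate block or library left out, 0 members, 0 of the other iron genes and 0 of all genes were called; with 1 library left out the range was 0 to 0. The lowest adjusted p of any member in these fits was 0.572. Counted at an unadjusted p under 0.05, there were 1037 of 13296 genes and 2 members without deprived 2, and 1141 of 13282 genes and 3 members without complete 1. DESeq2 gave 140 of 19472 genes and limma-voom 251 of 13068.

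Without deprived 2 and complete 1, chosen after the values were seen, 2096 of 13145 genes were called (1126 higher, or 8.57%, and 970 lower). Of the 9 tested members 5 were called, all higher, and of 78 other iron genes 15 were called (14 higher, 1 lower). The 9 members did not overlap between the groups (7 higher, 2 lower). With 2 libraries against 2, chosen for how they lay, 27.6% of all 13068 genes were likewise higher without overlap and 27.1% lower. The count of members that did not overlap was 1 with all libraries, 0 with RLE scaling and 0 with library totals alone. It was 1 to 3 with 1 library left out, 3 (all higher) without deprived 2 and 3 (all higher) without complete 1, where 12.1% and 12.5% of all genes were higher without overlap. The cause was not tested.

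Leaving out each library in turn gave log2 fold changes from 0.12 to 0.80 for FTH1, from 0.12 to 0.64 for FTL, from 0.085 to 0.18 for NCOA4, from 0.093 to 0.44 for SLC11A2, from 0.027 to 0.26 for ACO1 and from 0.049 to 0.15 for IREB2. The highest values of FTH1, FTL, SLC11A2 and ACO1 came without complete 1. The sign turned in members near 0. TFRC was at 0.0400 without deprived 1, 0.0071 without deprived 3 and 0.0171 without complete 3, with -0.10 as its lowest value. STEAP3 was at 0.0011, 0.0522 and 0.0279 without the same libraries, with -0.067 as its lowest. FBXL5 was at -0.0004 without deprived 1 and 0.17 without complete 1. The cause was not tested.

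In the fit with a replicate block, 0 genes, 0 members and 0 other iron genes were called, and 429 genes had an unadjusted p under 0.05. Deviations of libraries with the same number correlated at 0.384, 0.381 and -0.281, so the numbers were not shown to pair the libraries. Depth limits SLC40A1 and the untested genes, whose counts were at or near 0.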
